A study of Mus musculus with 7 samples.

Results

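The genes described are 32 mouse genes of protein folding in the endoplasmic reticulum (ER) and of the unfolded protein response, chosen by symbol. They were measured in cells marked by Bmi1 and sorted from intestinal crypts of mice on different diets. All 32 symbols were found, each at 1 Ensembl gene, among the 37310 genes of the deposited table of read counts. All 32 also passed the filter on low counts, which left 14626 genes for testing.

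The mice carried the alleles BmicreERT2 and Rosa26RFP in every group, so that cells in which the Bmi1 promoter had driven the Cre recombinase, and the descendants of those cells, became red. The labels do not say when the recombinase was switched on. From weaning to an age of 3 months the mice ate a highly purified diet, which was NWD2 for 2 libraries, NWD1 for 3 libraries and AIN76A for 2 libraries. AIN76A is a control diet, NWD1 is a Western-style diet rich in fat and poor in calcium and vitamin D3, and NWD2 is NWD1 with both of these nutrients restored. Strongly red crypt cells that carried Epcam and lacked CD45 were collected in bulk, their RNA was amplified and each library was sequenced as paired ends. NWD1 replicate 2 was labelled female and the other libraries male, and the labels do not tie a library to an animal. The p-values therefore measure only the spread between these libraries.

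Proteins that are to be secreted or built into membranes fold in the ER with the help of chaperones such as BiP, the product of Hspa5, and of disulfide isomerases. When unfolded proteins build up, the sensors IRE1, PERK and ATF6 in the ER membrane start the unfolded protein response. IRE1 splices the mRNA of Xbp1, PERK phosphorylates the translation factor eIF2 and so favours translation of ATF4, and ATF6 is cut to release a transcription factor. Their targets include chaperones, parts of ER-associated degradation (ERAD), which returns misfolded proteins to the cytosol, and, downstream of ATF4, the cell-death factor CHOP. In the intestine this response is known for its role in Paneth and goblet cells, which secrete large amounts of protein. Splicing of Xbp1, phosphorylation and cleavage are not seen in counts per gene, so only RNA levels are described.

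The motifs through which XBP1, ATF6 and ATF4 act are described first. They are not common to all of the genes, since Xbp1, Atf4 and Ddit3, for example, held none in the stretch searched. The genes were chosen as members of this response, so their shares of motifs are not independent of that choice. RefSeq promoters on the build GRCm38.p6, from 250 bases before to 50 bases after the start of transcription, were matched for 28 of the 32 genes. The ER stress response element (ERSE), CCAAT and CCACG with 9 bases between, was found on either strand in 9 of the 28, or 32.1%, against 0.119% of all 32851 promoter windows. Its second form (ERSE-II), ATTGG and CCACG with 1 base between, was found in 7.14% of the 28, namely in Herpud1 and Dnajb11, against 0.0365% of all windows. The amino acid response element core TGATGNAA, a site of ATF4, was found in 14.3% of the 28, namely in Herpud1, Trib3, Chac1 and Asns, against 3.97% of all windows. The core of the unfolded protein response element, TGACGTGG, was found in none of the 28 and in 0.676% of all windows. No 2 matches of different motifs overlapped in these genes, and a match is a description of letters, not of binding.

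The stretches below lie before the transcription start, run from 5′ to 3′ on the strand of the gene, and show the motif letters in capitals, with an ERSE on the opposite strand reading CGTGG and then ATTGG, and the ATF4 core on the opposite strand reading TTGCATCA. They are those of the main chaperone genes, of the other genes with an ERSE and of targets of ATF4.
Hspa5, chr2:34772015-34772053, plus strand: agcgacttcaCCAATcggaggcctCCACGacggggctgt
Hsp90b1, chr10:86705523-86705666, minus strand, with 2 elements: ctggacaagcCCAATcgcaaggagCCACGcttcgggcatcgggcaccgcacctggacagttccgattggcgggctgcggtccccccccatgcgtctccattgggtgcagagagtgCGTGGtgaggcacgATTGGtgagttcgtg
Calr, chr8:84847065-84847103, minus strand: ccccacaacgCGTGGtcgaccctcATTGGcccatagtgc
Canx, chr11:50325790-50325828, minus strand: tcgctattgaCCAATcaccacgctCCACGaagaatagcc
Pdia6, chr12:17266481-17266519, plus strand: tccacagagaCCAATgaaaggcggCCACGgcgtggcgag
Dnajc3, chr14:118937817-118937855, plus strand: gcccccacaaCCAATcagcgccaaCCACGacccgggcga
Creld2, chr15:88819510-88819548, plus strand: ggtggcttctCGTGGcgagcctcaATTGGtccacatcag
Syvn1, chr19:6046522-6046560, plus strand: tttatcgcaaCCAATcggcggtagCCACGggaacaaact
Derl3, chr10:75893232-75893270, plus strand: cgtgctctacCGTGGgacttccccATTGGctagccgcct
Herpud1, chr8:94386307-94386397, plus strand, ATF4 core and then ERSE-II: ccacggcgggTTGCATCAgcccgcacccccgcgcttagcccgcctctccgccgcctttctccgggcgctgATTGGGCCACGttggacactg
Chac1, chr2:119351039-119351066, plus strand: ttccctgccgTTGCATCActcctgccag
Asns, chr6:7693215-7693242, minus strand: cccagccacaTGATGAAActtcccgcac

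Total counts were 71331627 and 77959407 in NWD2, 44260145, 65822352 and 14034315 in NWD1, and 58419160 and 39657707 in AIN76A, in the order of their replicate numbers. Values per library below are CPM, that is counts scaled to a common library total, adjusted by TMM, a factor that lines up the bulk of the genes between libraries. The name-giving Bmi1 lay between 2.12 and 5.25 CPM and the reserve stem cell gene Hopx between 64.0 and 109 CPM. Lyz1, of Paneth cells, lay between 4122 and 13564 CPM and Chga, of hormone-producing cells, between 105 and 627 CPM, so products of differentiated secretory cells were abundant in the sorted population. NWD2 replicate 2 had the lowest Epcam, at 225 CPM, against 510.0 to 1338 CPM in the other libraries. The library NWD1 replicate 3 was the shallowest, was the only one of its diet with the i5 index of the NWD2 libraries, and has no column under its own name in the deposited TPM table, which heads 1 column with a name that no sample has.

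Per length, the 32 genes spanned a wide range of levels in the deposited TPM values (transcripts scaled to a common total) of 6 libraries. P4hb, a disulfide isomerase that is also a subunit of the microsomal triglyceride transfer protein, stood highest with a median of 3104 TPM and a range from 2271 to 4745 TPM. The chaperone Calr, which binds glycoproteins and calcium, followed with a median of 483 TPM, Hspa5 with 470.4 TPM and the isomerase Pdia3 with 399 TPM. The ranges of these last 3 overlapped (399 to 611 TPM, 371 to 510.4 TPM and 210.0 to 543 TPM), so their order is not set by these libraries. Canx, the membrane-bound relative of Calr, had a median of 234 TPM, Hsp90b1, the ER form of HSP90, 169.7 TPM, and the transcription factor gene Xbp1 165.5 TPM.

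The sensors stood far lower. The ATF6 gene Atf6 had a median of 10.6 TPM, Ern1, which encodes the widely expressed form of IRE1, 3.33 TPM, and the PERK gene Eif2ak3 1.80 TPM. Ern2, which encodes the form of IRE1 found in mucosal epithelium, had 19.8 TPM, and its lowest library, at 14 TPM, lay above the highest of Ern1, at 4.28 TPM. Derl3, an ERAD membrane protein gene of secretory cells, and Chac1, a glutathione-degrading target of ATF4 and CHOP, were lowest, with medians of 0.946 and 0.732 TPM. They rested on 16 to 56 and on 9 to 62 counts per library.

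**Figure D1:**
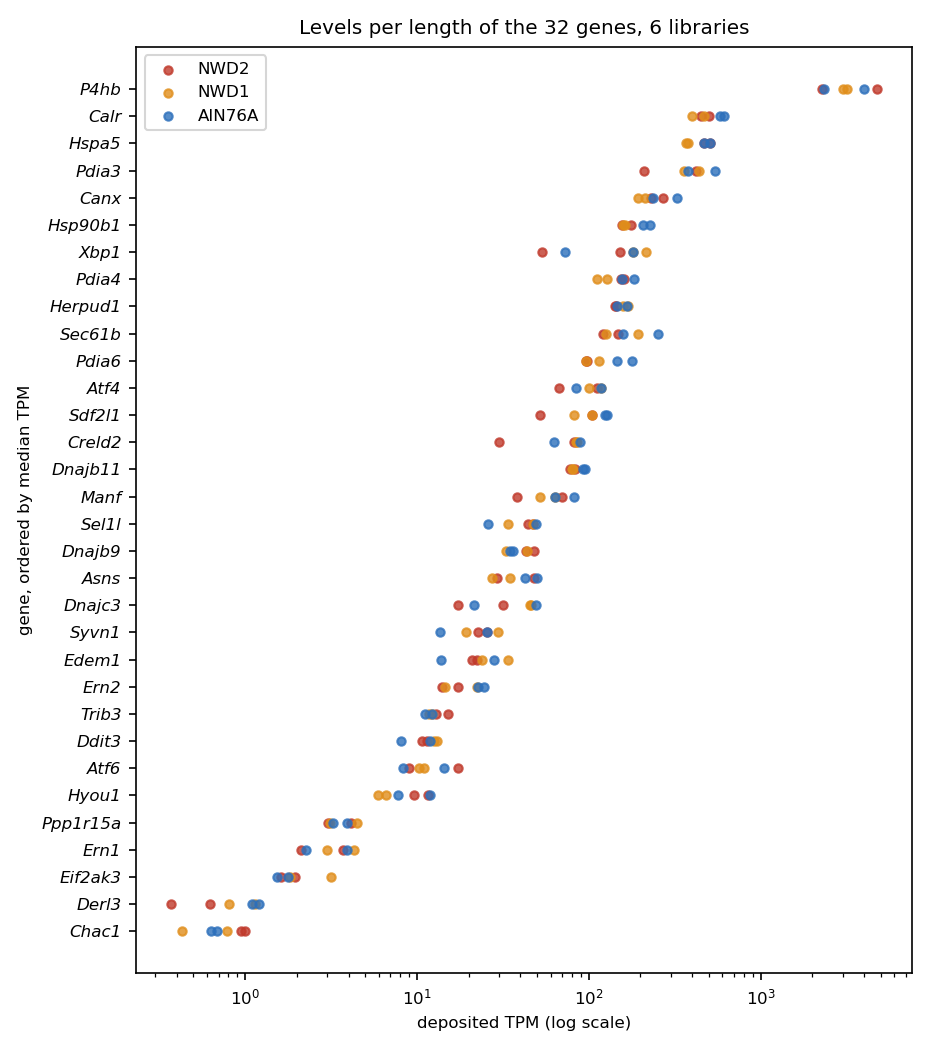
Deposited TPM of the 32 genes (horizontal log axis) in 6 libraries, 1 point per library coloured by diet, with genes ordered by their median. P4hb lies highest, at a median of 3104 TPM, the sensors Ern1 and Eif2ak3 lie at 3.33 and 1.80 TPM, and the points of the diets are mixed in most rows.

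None of the 32 genes passed the test between any pair of diets. With p-values adjusted by the Benjamini-Hochberg method over all 14626 genes, the quasi-likelihood test of edgeR called 0 of the 32 in each comparison, where it called 0% of all genes tested as well. At an unadjusted p under 0.05 it found 0 of the 32 for NWD2 over AIN76A against 3.83% of all genes. For NWD1 over AIN76A it found 1 of the 32, Pdia6, against 3.42% of all genes, and for NWD2 over NWD1 it found 1, Dnajc3, against 7.89%. limma voom also called 0 of the 32 in each comparison and 0% of all genes. DESeq2 called 0 of the 32 in each as well, where it called 0.356% of all genes for NWD2 over AIN76A, 0.00684% for NWD1 over AIN76A and 1.23% for NWD2 over NWD1. The 95% intervals of the 3 comparisons reached from -2.57 to 1.94 on the log2 scale over all members, and the SE of a member's log2 fold change lay between 0.26 and 0.62. The ends of that span came from Derl3 and Chac1, which had few counts. The interval of Hspa5 for NWD1 over AIN76A was narrower, from -1.01 to 0.50. A p that misses the threshold does not show that levels did not differ, and differences within a gene's own interval remain possible.

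More of the genes had lower fitted values in NWD1 than in AIN76A. For NWD1 over AIN76A, 23 of the 32 genes had a negative log2 fold change, with a median of -0.20, where 49.4% of all genes tested were negative and their median was 0.01. For NWD2 over AIN76A, 19 were negative, with a median of -0.14, beside 52.6% of all genes and a median of -0.03. For NWD2 over NWD1, 12 were negative, with a median of 0.09, beside 46.5% and 0.05. In bulk RNA, fewer cells of a type and less RNA per cell cannot be told apart. The comparisons share libraries, since both diets were set against the same AIN76A libraries. Scaling by library size alone moved the median of all genes to 0.11, -0.15 and -0.19 in NWD1 over AIN76A, NWD2 over AIN76A and NWD2 over NWD1, and the median of the members to -0.09, -0.27 and -0.17, so the sign of the last one depends on the scaling. The i5 index of the library barcodes separates NWD2 from AIN76A completely, so these diets and the index cannot be told apart except through NWD1 replicate 3. Among libraries of the first index alone, that is without NWD1 replicate 3, the members' median for NWD1 over AIN76A was -0.27. With an index term the medians were -0.61 for NWD2 over AIN76A and -0.20 for NWD2 over NWD1, both resting on NWD1 replicate 3.

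**Figure D2:**
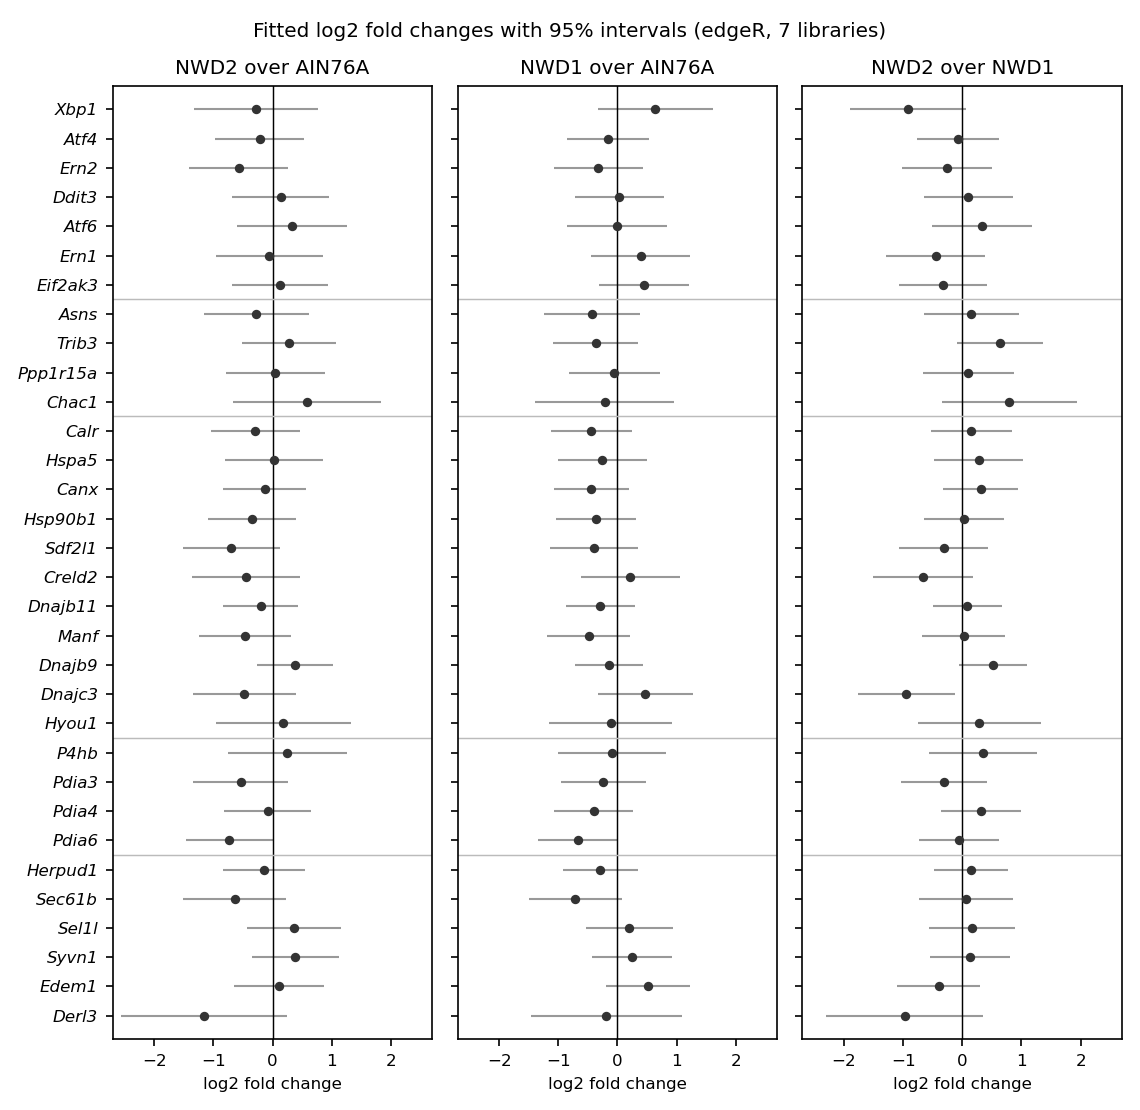
Fitted log2 fold changes (points) with 95% intervals (bars) of the 32 genes for NWD2 over AIN76A, NWD1 over AIN76A and NWD2 over NWD1, from 1 edgeR fit to 7 libraries. Rows are grouped, from the top, into sensors and their factors, targets of ATF4 and CHOP, chaperones, disulfide isomerases, and ERAD and translocation, and all intervals but those of Pdia6 for NWD1 over AIN76A and Dnajc3 for NWD2 over NWD1 include 0.

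The same genes were also counted by whether the libraries of the diets overlapped. For NWD2 over AIN76A, 4 genes were higher and 8 lower in every NWD2 library than in every AIN76A library, which is 37.5% of the 32 against 26.4% of all genes tested, of which 13.2% were higher and 13.2% lower. For NWD1 over AIN76A, 0 were higher and 2 lower, or 6.25% against 20.1% of all genes, of which 11.4% were higher and 8.61% lower. For NWD2 over NWD1, 3 were higher and 3 lower, or 18.8% against 25.3% of all genes, of which 10.8% were higher and 14.5% lower. These counts depend on the scaling, since the separation of Canx, Eif2ak3 and Trib3 rested on the TMM factors. The shares were not counted by library size alone. The highest library exceeded the lowest by a median of 2.17 times over the 32 genes, and by 1.98 times over the 7469 genes tested with a median of at least 10 CPM.

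The chaperones, the largest group, mostly had lower fitted values on both Western-style diets. Of 11 chaperone and cochaperone genes, 9 had negative values for NWD1 over AIN76A, with a median of -0.29, and 8 had negative values for NWD2 over AIN76A, also with a median of -0.29, and none passed. Hspa5, the BiP gene, had 868 and 1093 CPM in NWD2, 660.2, 629.7 and 1137 CPM in NWD1, against 1034 and 893 CPM in AIN76A. The libraries NWD1 replicates 1 and 2 were thus the lowest and NWD1 replicate 3 the highest of all, and the diets overlapped. Its log2 fold change was -0.25 for NWD1 over AIN76A (SE 0.33, edgeR adjusted p = 0.911) and 0.02 for NWD2 over AIN76A (SE 0.37, adjusted p = 0.996).

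Hsp90b1 had 332 and 436 CPM in NWD2, 319, 319 and 494 CPM in NWD1, against 520.0 and 454 CPM in AIN76A. Both NWD2 libraries lay below both AIN76A libraries, while NWD1 overlapped with AIN76A through replicate 3. Calr had 685 and 885 CPM in NWD2, 670.0, 556 and 892 CPM in NWD1, against 1044 and 876 CPM in AIN76A. Canx had 596 and 593 CPM in NWD2, 442, 390.3 and 605 CPM in NWD1, against 621 and 681 CPM in AIN76A. In TMM-scaled CPM it was the 1 chaperone lower in every NWD1 and every NWD2 library than in every AIN76A library. Its log2 fold changes were -0.44 (SE 0.28) for NWD1 and -0.13 (SE 0.31) for NWD2. The separation rested on the TMM factors, which were 0.951 for AIN76A replicate 1, 1.02 for NWD2 replicate 1 and 1.07 for NWD1 replicate 3.

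Hyou1, a large HSP70 relative that exchanges the nucleotide of BiP, followed the pattern of Hspa5 over a wider range, with 36.3 and 51.8 CPM in NWD2, 23.8, 20.8 and 63.8 CPM in NWD1, against 34.9 and 42.9 CPM in AIN76A. Without NWD1 replicate 3 the median of the 11 chaperones for NWD1 over AIN76A was -0.58, with 10 of 11 negative, and without AIN76A replicate 1 it was -0.15. Manf, a secreted factor that binds BiP, had 129.8 and 82.9 CPM in NWD2, 112, 89.2 and 112 CPM in NWD1, against 182 and 111 CPM in AIN76A, with AIN76A replicate 1 well above the rest. Dnajb11, a cochaperone of BiP, spanned 123 to 189 CPM and had the smallest ratio of highest to lowest library of the 32 genes, at 1.55.

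Several other BiP partners had low values in NWD2 replicate 2. Dnajc3, which encodes the cochaperone and PERK inhibitor p58IPK, had 86.1 and 55.6 CPM in NWD2, 119, 114 and 176 CPM in NWD1, against 69.4 and 128 CPM in AIN76A. Both NWD2 libraries were below all NWD1 libraries, but AIN76A spanned the gap, and the log2 fold change for NWD2 over NWD1 was -0.94 (SE 0.36, unadjusted p = 0.0279, edgeR adjusted p = 0.576). It was -0.66 without NWD2 replicate 2 and -1.33 without NWD2 replicate 1. Sdf2l1, a partner of BiP complexes, had 61.1 and 35.7 CPM in NWD2, 58.1, 44.1 and 77.9 CPM in NWD1, against 86.4 and 70.8 CPM in AIN76A. Its NWD2 libraries lay below both AIN76A libraries, with a log2 fold change of -0.70 (SE 0.36, edgeR adjusted p = 0.996), which was -0.36 without NWD2 replicate 2 and -1.18 without NWD2 replicate 1. Creld2, an isomerase-like ER protein, had 58.6 and 25.1 CPM in NWD2, 57.7, 56.2 and 84.6 CPM in NWD1, against 53.8 and 60.2 CPM in AIN76A, so that only NWD2 replicate 2 stood low.

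Dnajb9, a BiP cochaperone that represses IRE1, had its highest values in NWD2. It had 42.1 and 54.8 CPM in NWD2, 30.5, 39.2 and 31.6 CPM in NWD1, against 40.7 and 33.7 CPM in AIN76A. Both NWD2 libraries exceeded all others, with log2 fold changes of 0.38 over AIN76A (SE 0.28) and 0.52 over NWD1 (SE 0.26, edgeR adjusted p = 0.672). Scaled by library size alone, the value over NWD1 was 0.26.

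**Figure D3:**
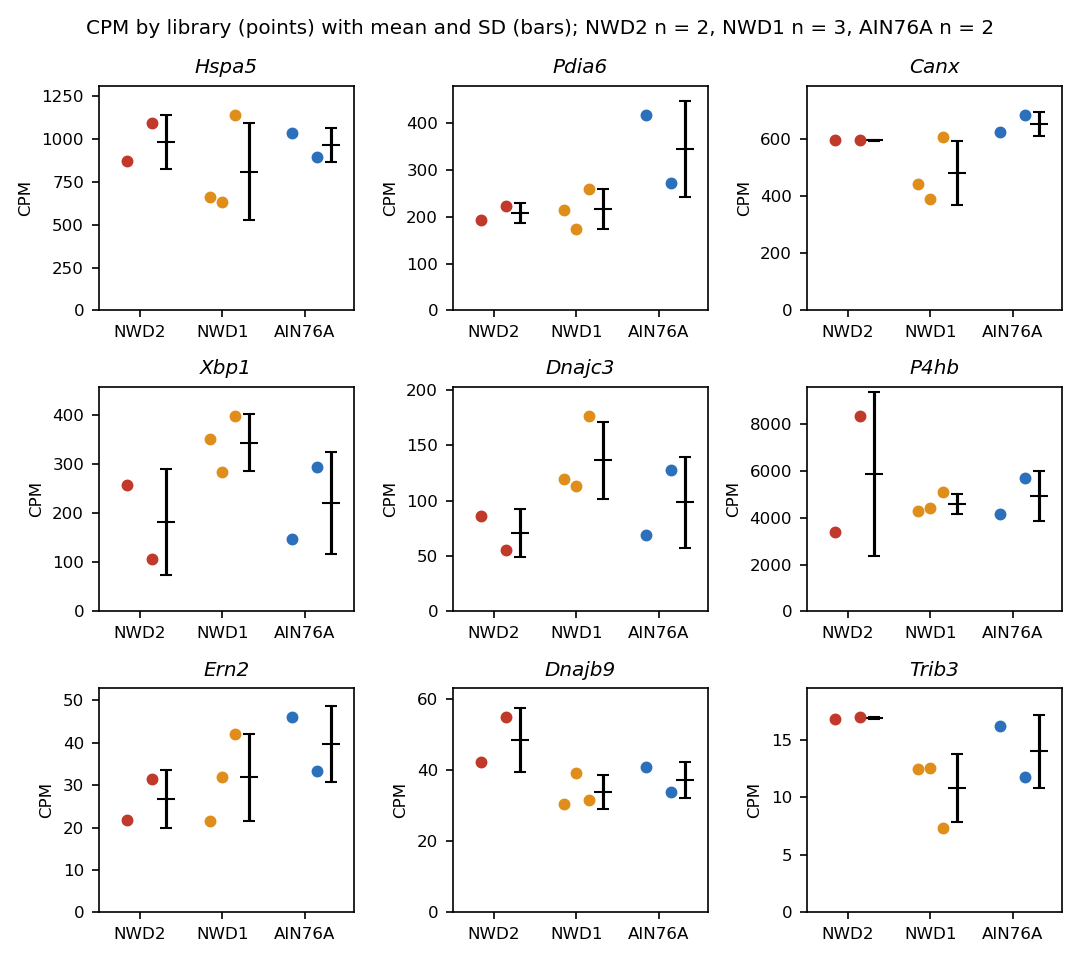
CPM (vertical axes, from 0) of 9 of the genes by diet, 1 point per library, with the mean and SD of each diet as a bar beside the points (n = 2 for NWD2, 3 for NWD1 and 2 for AIN76A). Pdia6 and Canx are lower in all NWD2 and NWD1 libraries than in AIN76A, for Canx only after TMM scaling. NWD2 lies below NWD1 for Xbp1 and Dnajc3, and 1 NWD2 library carries the high P4hb of 8344 CPM.

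Of the disulfide isomerases, which form and reshuffle disulfide bonds, all 4 had negative values for NWD1 over AIN76A, with a median of -0.32, and 3 of 4 for NWD2 over AIN76A, with a median of -0.31. Pdia6 showed the largest difference of them. It had 193 and 223 CPM in NWD2, 213, 174 and 259.6 CPM in NWD1, against 416 and 272 CPM in AIN76A, so that every NWD2 and NWD1 library was below both AIN76A libraries. The log2 fold change was -0.73 for NWD2 over AIN76A (SE 0.33, unadjusted p = 0.0516, edgeR adjusted p = 0.996) and -0.67 for NWD1 over AIN76A (SE 0.29, unadjusted p = 0.0464, adjusted p = 0.878). AIN76A replicate 1 carried much of it, since without that library the values were -0.39 and -0.34.

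The other isomerases were less uniform. Pdia4 had 208 and 235 CPM in NWD2, 158, 135 and 240.2 CPM in NWD1, against 242 and 226 CPM in AIN76A, the shape seen for Hspa5. Pdia3 had 690.1 and 405 CPM in NWD2, 683, 541 and 807 CPM in NWD1, against 744 and 849.6 CPM in AIN76A. Its NWD2 libraries were both below AIN76A, at a log2 fold change of -0.54 (SE 0.35), which was -0.20 without NWD2 replicate 2 and -1.02 without NWD2 replicate 1. P4hb had 3409 and 8344 CPM in NWD2, 4312, 4413 and 5105 CPM in NWD1, against 4184 and 5691 CPM in AIN76A, so the lowest and the highest library were both of NWD2. Mttp, the partner of P4hb in the triglyceride transfer protein, was picked after its values were seen and had 3018 and 10376 CPM in NWD2, 3001, 4148 and 5132 CPM in NWD1, against 2714 and 5302 CPM in AIN76A.

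Among the sensors and their transcription factors, Xbp1 differed most between diets. It had 258 and 106 CPM in NWD2, 349.6, 282 and 397 CPM in NWD1, against 147 and 293 CPM in AIN76A. Both NWD2 libraries were below all NWD1 libraries, and AIN76A overlapped with both. The log2 fold change for NWD2 over NWD1 was -0.91 (SE 0.44, unadjusted p = 0.065, edgeR adjusted p = 0.664), and it was -0.40 without NWD2 replicate 2 and -1.73 without NWD2 replicate 1. For NWD1 over AIN76A it was 0.64 (SE 0.43, adjusted p = 0.878), and 0.22 without AIN76A replicate 1.

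For the sensors themselves the libraries of the diets mostly overlapped. Ern1 had 15.8 and 10.6 CPM in NWD2, 12.1, 16.9 and 25.3 CPM in NWD1, against 11.6 and 15.9 CPM in AIN76A. Ern2 had 21.8 and 31.5 CPM in NWD2, 21.6, 32 and 42.0 CPM in NWD1, against 46.0 and 33.4 CPM in AIN76A. The NWD2 libraries were both below AIN76A for Ern2, at a log2 fold change of -0.57 (SE 0.37, edgeR adjusted p = 0.996) that was -0.32 without AIN76A replicate 1. Ern1 and Ern2 had opposite signs for NWD1 over AIN76A, at 0.39 and -0.32, neither of which passed.

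Eif2ak3, the PERK gene, had 5.56 and 5.37 CPM in NWD2, 4.95, 8.25 and 7.37 CPM in NWD1, against 5.20 and 4.81 CPM in AIN76A. Its log2 fold change for NWD2 over AIN76A was 0.13 (SE 0.36), although the libraries of these diets did not overlap in CPM. That gap rested on the TMM factors, which were 0.797 for NWD2 replicate 2 against 0.951 and 1.04 for AIN76A. Atf6 had 35.4 and 79.7 CPM in NWD2, 38.1, 39.9 and 59.7 CPM in NWD1, against 39.0 and 53.2 CPM in AIN76A. For Atf6 too the lowest and the highest library were the NWD2 libraries. Atf4, whose protein is controlled mainly at translation, had 101 and 70.7 CPM in NWD2, 102, 83.5 and 84.6 CPM in NWD1, against 127 and 72.8 CPM in AIN76A, with log2 fold changes between -0.22 and -0.07 in the 3 comparisons.

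Genes downstream of PERK and ATF4 did not pass either, and apart from Asns their levels were low. Ddit3, the CHOP gene, had 10.2 and 11.3 CPM in NWD2, 11.2, 10.4 and 8.50 CPM in NWD1, against 12.7 and 6.87 CPM in AIN76A. Ppp1r15a, which encodes GADD34, the phosphatase subunit that restores eIF2, had 4.69 and 7.45 CPM in NWD2, 4.57, 6.4 and 5.98 CPM in NWD1, against 6 and 5.73 CPM in AIN76A. For both genes the spread within AIN76A or NWD2 covered the other diets or nearly so, and their log2 fold changes lay between -0.05 and 0.14.

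Trib3, a pseudokinase that feeds back on ATF4 and CHOP, had 16.8 and 17.0 CPM in NWD2, 12.5, 12.5 and 7.37 CPM in NWD1, against 16.2 and 11.8 CPM in AIN76A. Chac1 had 0.852 and 0.949 CPM in NWD2, 0.352, 0.619 and 0.598 CPM in NWD1, against 0.648 and 0.556 CPM in AIN76A. Both genes were higher in each NWD2 library than in every other library. For Trib3 this rested on the TMM factors, which were 0.797 for NWD2 replicate 2 and 0.951 for AIN76A replicate 1. The log2 fold changes for NWD2 over NWD1 were 0.64 for Trib3 (SE 0.32, edgeR adjusted p = 0.677) and 0.79 for Chac1 (SE 0.51, adjusted p = 0.737), and the 95% intervals, from -0.08 to 1.36 and from -0.35 to 1.94, included 0. Asns, the asparagine synthetase gene and a classic target of ATF4, did not share this pattern. It had 69.2 and 49.5 CPM in NWD2, 47.6, 36.0 and 76.5 CPM in NWD1, against 85.7 and 57.7 CPM in AIN76A. The ATF4 core was found in the promoter windows of all 3 of these genes.

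ERAD and translocation genes had values of both signs. Herpud1, a membrane scaffold of ERAD, had 175 and 203 CPM in NWD2, 185, 191 and 136 CPM in NWD1, against 246 and 171 CPM in AIN76A. Edem1, which directs misfolded glycoproteins to ERAD, had 68.6 and 74.8 CPM in NWD2, 70.0, 96.4 and 117 CPM in NWD1, against 50.9 and 81.5 CPM in AIN76A. Edem1, Sel1l and Syvn1, the last a ubiquitin ligase that Sel1l supports, were lowest in AIN76A replicate 1, at 50.9, 139 and 41.6 CPM, with their highest libraries at 117, 261 and 76.7 CPM, and their values for NWD1 over AIN76A were 0.51, 0.20 and 0.25. These rested on that library, since without it they were 0.21, -0.07 and -0.01. Sec61b, a subunit of the translocation channel, was by contrast highest in that library, with 98.1 and 94.2 CPM in NWD2, 123, 77.9 and 74.8 CPM in NWD1, against 201 and 99.6 CPM in AIN76A. Its NWD2 libraries were below AIN76A, with a log2 fold change of -0.64 (SE 0.39, edgeR adjusted p = 0.996) that was -0.05 without AIN76A replicate 1. For NWD1 over AIN76A it had the most negative value of the 32 genes, -0.71 (SE 0.35), which was -0.12 without AIN76A replicate 1.

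Derl3 was the least expressed ERAD gene, with 0.261 and 0.515 CPM in NWD2, 0.766, 0.518 and 1.06 CPM in NWD1, against 1.01 and 0.725 CPM in AIN76A. Its NWD2 libraries were below all others, and at -1.16 for NWD2 over AIN76A it had the most negative value of the 32 genes (SE 0.62, edgeR adjusted p = 0.996, 95% interval from -2.57 to 0.24). Derl3 is known for high levels in plasma cells. The 11 plasma cell markers measured summed to 111 and 45.0 CPM in NWD2, 102, 54.6 and 101 CPM in NWD1, against 63.2 and 98.3 CPM in AIN76A, mostly from Sdc1, which epithelium also expresses, while Tnfrsf17 was at 0 in all 7 libraries and 1 to 3 markers were at 0 in each. Their part in the Derl3 values was not tested.

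The 9 genes with an exact ERSE did not share 1 pattern across libraries. Their median log2 fold change was -0.34 for NWD2 over AIN76A, -0.25 for NWD1 over AIN76A and 0.03 for NWD2 over NWD1, against -0.05, -0.15 and 0.10 for the 19 matched genes without one. In NWD2 replicate 2 the ERSE genes Dnajc3 and Creld2 had their lowest values of the 7 libraries, whereas Syvn1 had its highest.

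**Figure D4:**
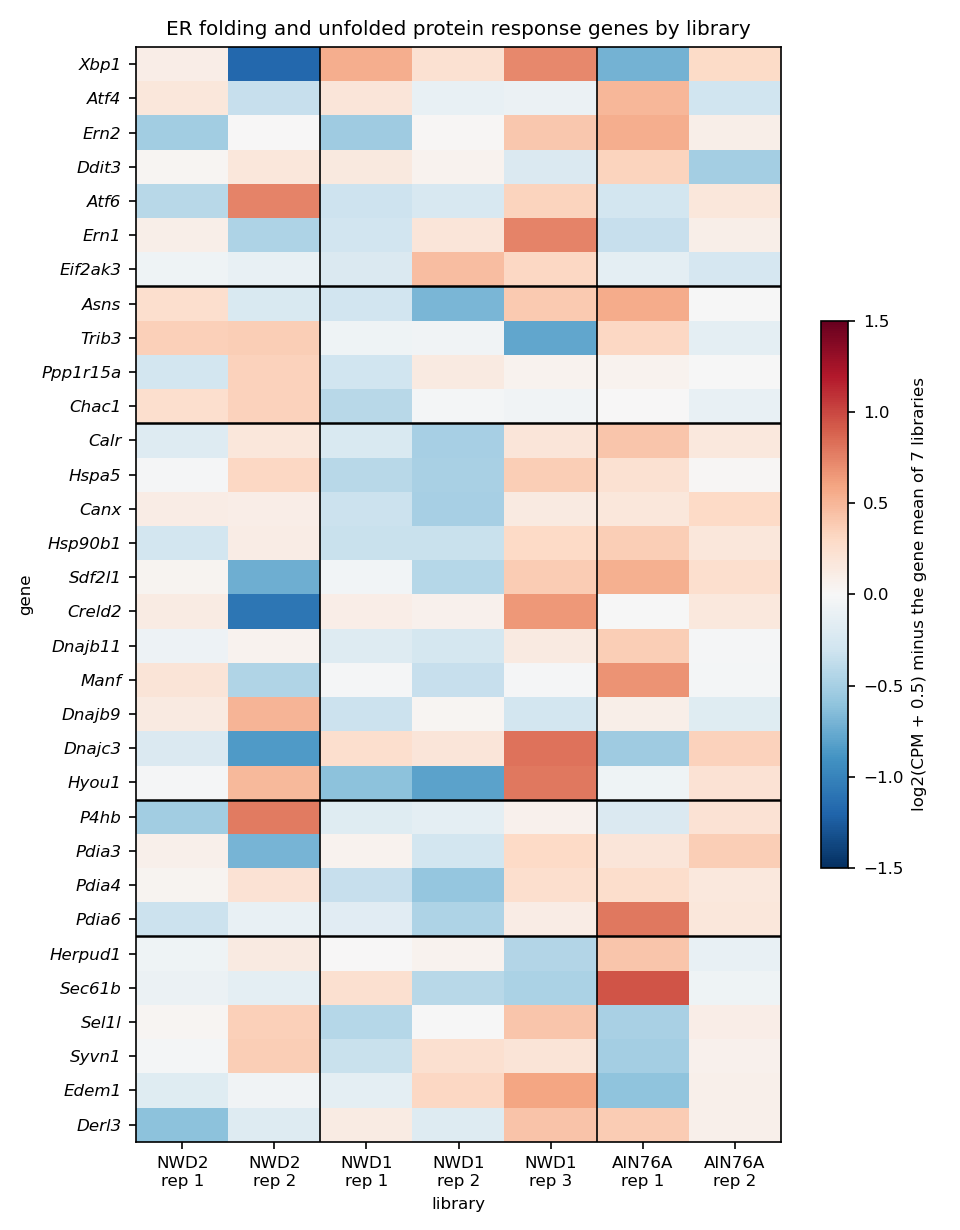
Level of each of the 32 genes (rows, grouped by role as in the plot of fold changes) in each of the 7 libraries (columns), as log2(CPM + 0.5) minus the mean of that gene over all libraries, with red above and blue below that mean. Most chaperones and isomerases are blue in NWD1 replicates 1 and 2 and red in NWD1 replicate 3 and in AIN76A replicate 1, and NWD2 replicate 2 holds strong colours of both kinds.

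The highest and lowest values of the 32 genes were spread unevenly over the libraries. AIN76A replicate 1 held the highest value of 13 genes, or 40.6%, against 21.6% of all genes tested. NWD1 replicate 3 held that of 9, or 28.1% against 12% of all genes, and NWD2 replicate 2 that of 7, or 21.9% against 23.1%. The lowest value was held by NWD1 replicate 2 for 9 genes, or 28.1% against 16.4% of all genes, and by NWD2 replicate 2 for 8, or 25% against 22.3%. Summed over the 11 chaperones, the level was 3033 and 3465 CPM in NWD2, 2621, 2380 and 3836 CPM in NWD1, against 3877 and 3496 CPM in AIN76A. NWD1 replicates 1 and 2 were lowest and the NWD1 replicate 3 library lay beside AIN76A.

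Markers of the secretory cells followed these sums in part. The 15 goblet markers summed to 9111 and 11078 CPM in NWD2, 5959, 8761 and 10574 CPM in NWD1, against 20752 and 10203 CPM in AIN76A. The 14 Paneth markers summed to 12013 and 23172 CPM in NWD2, 20992, 16214 and 20804 CPM in NWD1, against 42535 and 29441 CPM in AIN76A. No marker of either list was at 0 in any library. For NWD1 over AIN76A, 13 of the 15 goblet and 14 of the 14 Paneth markers had negative log2 fold changes, with medians of -0.61 and -0.76. For NWD2 over AIN76A, the counts were 11 of 15 and 14 of 14, with medians of -0.80 and -0.99. AIN76A replicate 1 carried much of the goblet difference. As log2(CPM + 0.5) minus each gene's mean, the goblet median was 0.86 in that library but 0.05 in AIN76A replicate 2. It was -0.31 and -0.22 in NWD2 and -0.50, -0.24 and 0.02 in NWD1. The Paneth median was 0.90 and 0.37 in AIN76A, both above the other libraries. The part of these cells in the chaperone values was not tested.

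The 14 enterocyte markers summed to 51833 and 108973 CPM in NWD2, 51012, 68253 and 51977 CPM in NWD1, against 46273 and 56484 CPM in AIN76A. NWD2 replicate 2, with the highest sum, held the highest value of 7 of the 32 genes, P4hb and Atf6 among them. It held the lowest value of 8, among them Xbp1, Dnajc3, Creld2, Sdf2l1 and Pdia3. Both counts were near the shares of that library over all genes tested, 23.1% and 22.3%. The part of enterocytes in these values was not tested.

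The summed levels of enteroendocrine and tuft cell markers were lower in both NWD2 libraries than in the other 5. The 15 enteroendocrine markers, none at 0 in any library, summed to 477 and 666 CPM in NWD2, 1903, 2045 and 1758 CPM in NWD1, against 1850.2 and 2316 CPM in AIN76A, and all 15 had negative values for NWD2 over either other diet. The 12 tuft cell markers summed to 89.8 and 133 CPM in NWD2, 388, 155 and 259 CPM in NWD1, against 326 and 214 CPM in AIN76A, with 0 to 2 of them at 0 in a library. The 16 leukocyte markers, none at 0, summed to 53.2 and 82.9 CPM in NWD2, 72.9, 93.9 and 354 CPM in NWD1, against 372 and 157 CPM in AIN76A. Cd74 alone had 35.4 and 60.4 CPM in NWD2, 28.5, 71.8 and 302 CPM in NWD1, against 343 and 140 CPM in AIN76A, so the high sums were mostly Cd74. The median of the log2 fold changes of the leukocyte markers was by contrast 1.72 for NWD2 over AIN76A, from markers near the floor. Cd3e, for example, had 0.398 and 0.901 CPM in NWD2 against 0.144 and 0.121 CPM in AIN76A. The markers highest in AIN76A, Ptprc, Rac2, Lyz2 and Cd74, had -1.30, -1.51, -0.71 and -2.33, and the rest were positive. The 15 markers of crypt base and reserve stem cells, among them Bmi1 and Hopx, summed to 1395 and 647 CPM in NWD2, 1182, 519 and 621 CPM in NWD1, against 574 and 1057 CPM in AIN76A, and had a median of 0.10 for NWD2 over AIN76A. Much of each sum was Olfm4, with 1024 and 410.4 CPM in NWD2, 807, 273 and 375 CPM in NWD1, against 314 and 726 CPM in AIN76A. The part of these cells in the values of the ER genes was not tested.

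Markers of dissociation stress, 18 immediate early and heat shock genes, summed to 612 and 858 CPM in NWD2, 624, 989 and 653 CPM in NWD1, against 512 and 712 CPM in AIN76A. The part of dissociation stress in the values of the ER genes was not tested.

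**Figure D5:**
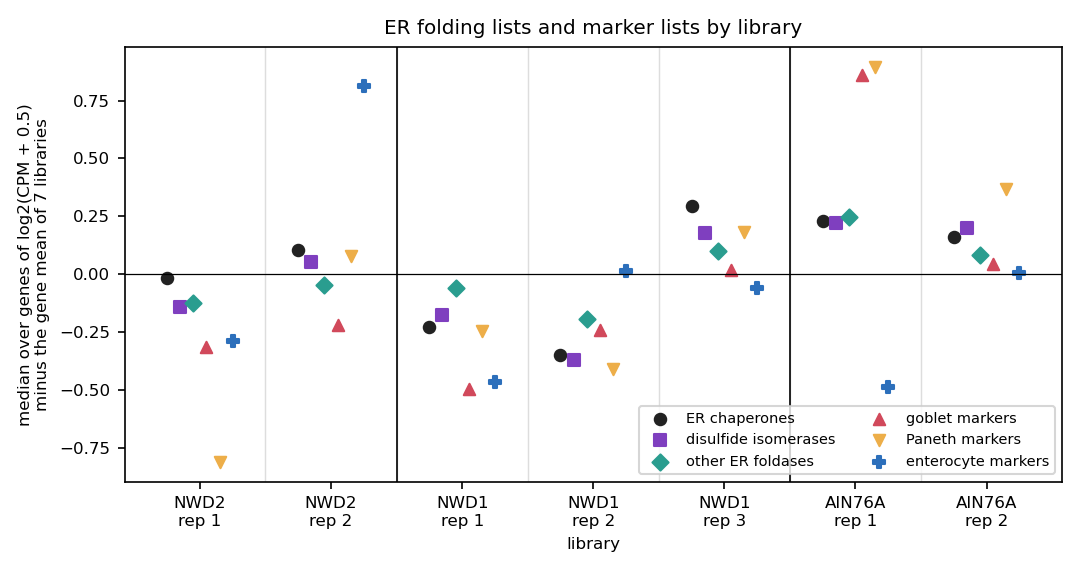
Median over the genes of a list of log2(CPM + 0.5) minus each gene's mean (vertical axis) in each library (horizontal axis) for ER chaperones, disulfide isomerases, other ER foldases, and goblet, Paneth and enterocyte markers. The 3 ER lists lie above 0 in NWD1 replicate 3 and both AIN76A libraries and below 0 in NWD1 replicates 1 and 2, and enterocyte markers are highest in NWD2 replicate 2.

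Further genes of the pathway were taken from 6 lists, chosen for their roles, of which none held a gene that passed the edgeR test. Of 26 other ER chaperones and foldases tested, 19 were negative for NWD1 over AIN76A and 21 for NWD2 over AIN76A, with medians of -0.32 and -0.29, which were -0.17 and -0.06 without AIN76A replicate 1, when 27 were tested. At an unadjusted p under 0.05, 5 were lower for NWD1 over AIN76A and 4 for NWD2 over AIN76A, beside 0.896% and 2.65% of all genes tested, and 3 for NWD2 over NWD1, beside 6.75%. Agr2, a disulfide isomerase needed for mucin folding in goblet cells, had 451 and 663 CPM in NWD2, 564, 520.4 and 690.4 CPM in NWD1, against 1790 and 718 CPM in AIN76A. Each NWD2 and NWD1 library was below both AIN76A libraries, with log2 fold changes of -1.17 (SE 0.44, edgeR adjusted p = 0.996) for NWD2 and -1.08 (SE 0.39, adjusted p = 0.878) for NWD1. Without AIN76A replicate 1 these were -0.37 and -0.29. Pdia2 and Pdia5, further disulfide isomerases, had -1.66 (SE 0.49) and -0.73 (SE 0.31) for NWD2 over AIN76A and -1.32 (SE 0.43) and -0.77 (SE 0.27) for NWD1 over AIN76A, and without the same library -1.15 and -0.48 for NWD2 and -0.82 and -0.53 for NWD1.

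For NWD2 over NWD1, Txndc5, a thioredoxin-like isomerase, had lower values in both NWD2 libraries, with 144 and 62.9 CPM in NWD2 and 202, 224 and 303 CPM in NWD1 (log2 fold change -1.23, SE 0.39, edgeR adjusted p = 0.532). In AIN76A it had 169 and 226 CPM. Dnajc1 and Txndc11 had -1.01 (SE 0.34) and -1.13 (SE 0.42) in the same comparison, and these 3 genes were, like Xbp1, lowest in NWD2 replicate 2. Without that library Txndc5, Dnajc1 and Txndc11 had -0.74, -0.67 and -0.64.

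The 21 genes of translocation and signal peptide processing and the 11 oligosaccharyltransferase genes, which attach sugar chains to entering proteins, had medians of -0.27 and -0.36 for NWD1 over AIN76A, with 18 and 10 negative. For NWD2 over AIN76A their medians were -0.19 and -0.37, with 14 and 10 negative, and without AIN76A replicate 1 these were 0.03 and -0.18. Sec63, a partner of the channel and of BiP, was the 1 gene of these lists at an unadjusted p under 0.05, for NWD2 over NWD1 (-0.87, SE 0.24, edgeR adjusted p = 0.504). The 20 other ERAD genes had medians between -0.07 and 0.13 in the 3 comparisons. Of these, Herpud2 had 1.09 (SE 0.44) for NWD1 over AIN76A and -1.55 (SE 0.45) for NWD2 over NWD1, and Ube2j2, a ubiquitin-conjugating enzyme, had -0.96 (SE 0.38) for NWD2 over NWD1. Without AIN76A replicate 1 the first Herpud2 value was 0.63, and without NWD2 replicate 2 that of Ube2j2 was -0.64.

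The 32 other genes of the integrated stress response tested, among them the kinases that share the substrate of PERK and further targets of ATF4, had medians of -0.04 for NWD2 over AIN76A, -0.19 for NWD1 over AIN76A and 0.11 for NWD2 over NWD1, of which the first was -0.41 and the last -0.25 without NWD2 replicate 1. For NWD2 over AIN76A, Nupr1, a stress-induced chromatin factor gene, had -1.18 (SE 0.40) and Psat1, of serine synthesis, -0.91 (SE 0.32), or -0.60 without NWD2 replicate 2. Gpt2, an alanine transaminase gene, had -1.45 (SE 0.41) for NWD2 over NWD1. The edgeR adjusted p was 0.996 for Nupr1 and Psat1 and 0.504 for Gpt2, and the signs were opposite to those of Trib3 and Chac1 in the same comparisons.

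Genes of transport from the ER to the Golgi and of ER stress transcription factors, 30 in all, had medians of 0.20 for NWD2 over AIN76A, -0.03 for NWD1 over AIN76A and 0.28 for NWD2 over NWD1. Without NWD2 replicate 2 the medians were -0.12 for NWD2 over AIN76A and -0.15 for NWD2 over NWD1, so the positive signs rested on that library. NWD2 replicate 2 held the highest value of 21 of these 30 genes. Sec23a and Sec24d, coat proteins of ER vesicles picked after their values were seen, had 335 and 232 CPM in NWD2 replicate 1 but 1129 and 928 CPM in NWD2 replicate 2. Creb3l1 and Creb3l4, membrane-bound transcription factors related to ATF6, had -0.80 (SE 0.29) and -0.95 (SE 0.38) for NWD2 over AIN76A, at an edgeR adjusted p of 0.996 each. Creb3l4 had 13.3 and 19.4 CPM in NWD2, 19.0, 18.6 and 21.9 CPM in NWD1, against 42.1 and 20.9 CPM in AIN76A, and its value was -0.36 without AIN76A replicate 1. Creb3l1 had 9.78 and 9.59 CPM in NWD2, 15.4, 14.3 and 18.4 CPM in NWD1, against 17.8 and 16 CPM in AIN76A, so both NWD2 libraries lay below the other 5. Tmed2, a cargo receptor gene, had -1.11 (SE 0.40) for NWD2 over NWD1, and -0.58 without NWD2 replicate 2.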

How the data were processed

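Per the labels' protocols the 7 libraries were made with SMART-Seq v4 and Nextera XT, which keep no strand information. The authors deposited raw counts for each Ensembl gene. Per the submitters' processing notes, STAR 2.4.2a, HTSeq 0.6.1 and edgeR were used on mm9, with no roles given, and the annotation and strand setting are not given in the sources used here. The deposited TPM values come with the same notes, and 1 column whose name fits no sample was not used, which leaves 6 libraries. That table also pairs the gene IDs with the symbols used here.

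The main test was edgeR 4.0.16 (quasi-likelihood, robust, TMM, filterByExpr, diet as the only term, 4 residual degrees of freedom) in R 4.3.3, with p-values adjusted over 14626 genes and 0.05 as the threshold. SEs and 95% intervals come from that fit, and a pseudocount of 0.5 CPM served in the plots by library. An exact permutation test could not go below p = 0.333 for 2 against 2 libraries or 0.1 for 3 against 2, so none was used. Alternatives were other scalings and filters, DESeq2 1.42.0, limma 3.58.1 on voom values or on log2(TPM + 1), terms for replicate number, sex or i5 index, fits of 2 diets only, and each library left out in turn. The code was tested on simulated counts.

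The genes, lists, motifs and the rule for named genes were chosen with earlier results of these data known. Under that rule the values of a fixed set of members, of any member with an unadjusted p under 0.05 or with separate libraries, and of at most 3 genes per further list and comparison are given. Counting of genes with near-identical copies or antisense neighbours is uncertain without strand. Promoter coordinates are those of GRCm38.p6, not of the build of the counts.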

Additional observations from a re-analysis of the deposited data

How the results depend on the processing

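Every alternative that was run called 0 of the 32 genes in each comparison. The smallest adjusted p of a member over all settings was 0.107, for Xbp1 in NWD2 over NWD1 without NWD2 replicate 1 (edgeR). Over all genes, with 0 called by the test used, DESeq2 called 1 for NWD1 over AIN76A, 52 for NWD2 over AIN76A and 180 for NWD2 over NWD1, and edgeR with no filter on low counts called 85, 190 and 384 in the same order. The fit to log2(TPM + 1) called 1 for NWD1 over AIN76A and 1 for NWD2 over NWD1. An index term gave 1 for NWD2 over AIN76A and 2 for NWD2 over NWD1, and a fit to NWD2 and AIN76A alone gave 6. The causes were not tested. The median of the members moved to -0.61 for NWD2 over AIN76A and -0.20 for NWD2 over NWD1 with the index term, and for NWD2 over NWD1 to -0.17 by library size alone and to -0.10 on the TPM scale.

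With each library left out in turn, 0 to 1 genes were called for NWD2 over NWD1 and 0 to 0 in the other comparisons, and the members' median ranged from -0.35 to -0.09 for NWD1 over AIN76A, from -0.17 to -0.01 for NWD2 over AIN76A and from -0.02 to 0.12 for NWD2 over NWD1. With a replicate block, which in effect drops NWD1 replicate 3, 1 gene was called for NWD2 over AIN76A and the medians were -0.28, -0.13 and 0.13. Same-numbered libraries of different diets correlated by 0.0633 to 0.324 in their deviations from the diet means, above 0.1 in some pairs only. Differently numbered libraries correlated by -0.324 to 0.233. With 2 libraries each, the deviations within AIN76A and within NWD2 are mirror images, so these values cannot decide on pairing. No label ties same-numbered libraries to an animal or batch, so they were not treated as pairs. A filter at 1 CPM in 2 libraries removed Derl3 and Chac1, and a sex term in effect drops NWD1 replicate 2. The depth of 14034315 counts limits the values of NWD1 replicate 3 for genes as low as these.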
